A study of Mus musculus with 4 samples.

Results

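The cells described here are Chil3-high classical monocytes from CT26 tumours, 669 of the 27447 cells kept from 4 droplet libraries of CD45+ tumour cells. CT26 is a colon carcinoma line of Balb/c mice that grows as an implanted tumour, and CD45 is a surface protein of leukocytes by which the cells were selected with magnetic beads. Of the libraries, 2 came from Balb/c mice aged 9 weeks that bore CT26 tumours and received liproxstatin-1 for 8 days, and 2 came from control mice of the same strain, age and tumour. What the control mice received is not given in the sources used here, and nothing in the labels says whether the 2 libraries of a group are separate animals, so a p-value here speaks only of the variation among the libraries, part of which may be technical. Members were chosen from their own counts of unique molecular identifiers (UMIs, each standing for 1 captured transcript). A member had at least 2 Ly6c2, at least 2 Chil3 and at least 1 Csf1r UMIs. It also had fewer than 10 C1qa, C1qb and C1qc UMIs per 10000, under 1% of its UMIs from S100a8 and S100a9, at most 1 Cd3d or Cd3e UMI, no Ncr1 UMI and fewer than 3 Siglech UMIs. Of 803 cells that met the Ly6c2, Chil3 and Csf1r limits, 88 failed the C1q limit, 10 the S100a8 and S100a9 limit, 25 the Cd3 limit, 23 the Ncr1 limit and 2 the Siglech limit, where a cell could fail several.

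Classical monocytes are made in the bone marrow, leave it through the chemokine receptor Ccr2 and enter inflamed tissue and tumours, where they can become macrophages or dendritic-like cells. In mice they carry high surface Ly6C, encoded by Ly6c2 and its near-identical neighbour Ly6c1. Chil3 encodes a secreted chitinase-like lectin, also called Ym1, that newly made mouse monocytes, granulocyte precursors and some macrophages produce. Csf1r is the receptor for the growth factor that keeps monocytes and macrophages alive. Liproxstatin-1 traps lipid radicals and so blocks ferroptosis, a death caused by iron-dependent peroxidation of membrane lipids.

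The Chil3 gene lies on the minus strand of mouse chromosome 3. A window of 300 bases around its start of transcription (RefSeq, GRCm38.p6, chr3:106167515-106167814, minus strand) is shown because Chil3 defines these cells. The capitals mark its match to the GAS-like motif TTCNNNGAA, which is the same on both strands, and 8.3% of 32851 such windows of all mouse genes hold a match.
Chil3: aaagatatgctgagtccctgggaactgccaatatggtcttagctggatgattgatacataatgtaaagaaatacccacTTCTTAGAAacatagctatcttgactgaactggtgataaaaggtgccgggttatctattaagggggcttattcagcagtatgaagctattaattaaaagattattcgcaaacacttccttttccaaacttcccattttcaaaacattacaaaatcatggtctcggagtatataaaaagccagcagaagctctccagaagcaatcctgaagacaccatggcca
Of the 5 genes given as markers of these cells, Ly6c2, Chil3, Hp, Plac8 and Ifitm6, 4 matched a window, and 2 of them, Chil3 and Ifitm6, held this motif. None of their 6 windows held the interferon-response motif, a pair of GAAA repeats parted by 2 bases, found in 3.44% of all windows, or a glucocorticoid-response-element-like motif, GNACA and TGTNC parted by 3 bases, found in 0.475%. Both strands were searched. A match describes letters only.

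The members numbered 297 and 265 in liproxstatin replicates 1 and 2, against 52 and 55 in control replicates 1 and 2. Their shares of all kept cells were 3.61% (exact 95% interval 3.22 to 4.04) and 3.04% (2.69 to 3.43) in the liproxstatin libraries, against 1.34% (1.00 to 1.75) and 0.829% (0.625 to 1.08) in the control libraries. Both liproxstatin shares lay above both control shares. The means were 3.33% ± 0.402 with liproxstatin and 1.08% ± 0.361 in controls (SD, n = 2 each), a ratio of 3.07. The exact two-sided permutation test gave p = 0.33, the smallest that 2 against 2 libraries allow. These intervals cover counting error only.

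The share of monocytes as a whole overlapped between the groups, while their Chil3 numbers, which the rule used, did not. Cells that passed every limit apart from Chil3 made up 9.59% and 9.40% of liproxstatin cells, against 10.0% and 7.03% of control cells (ratio 1.11, exact permutation p = 1.0000). Within these monocytes the members took 37.6% and 32.4% with liproxstatin, against 13.3% and 11.8% in controls. Monocytes without a Chil3 UMI were 5.18% and 5.17% of liproxstatin cells and 7.63% and 5.56% of control cells. With 10 or more Chil3 UMIs there were 111 of 789 and 67 of 819 such monocytes in the liproxstatin libraries, and 9 of 390 and 11 of 466 in the control libraries. Just inside the limit, 53 and 58 liproxstatin cells and 14 and 11 control cells had exactly 2 Chil3 UMIs. Just outside it, 66 and 104 liproxstatin cells and 42 and 42 control cells had 1. Summed over all of these monocytes Chil3 stood at 313 and 198 CPM (UMIs per 1000000 UMIs of the summed cells) with liproxstatin, against 53.1 and 55.7 CPM in controls. These values describe the choice of members and carry no test.

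**Figure D1:**
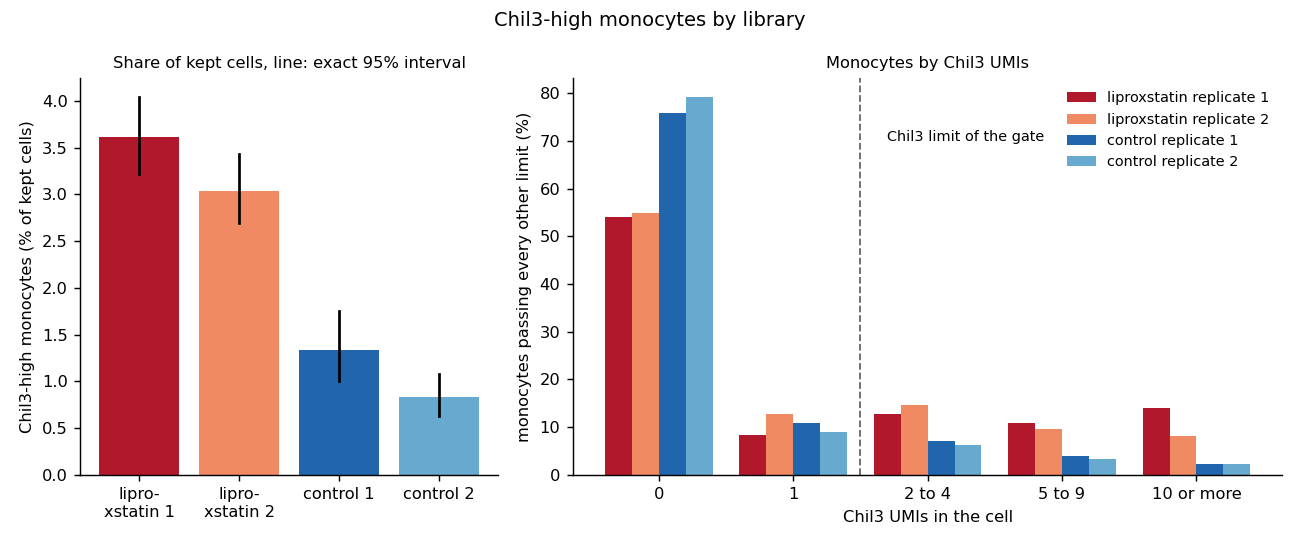
The left panel shows Chil3-high monocytes as a percentage of kept cells in each library with exact 95% intervals, and the right panel shows the monocytes of each library (in percent) by their Chil3 UMIs, with a dashed line at the limit of 2. Both liproxstatin bars, at 3.61% and 3.04%, stand above both control bars, at 1.34% and 0.829%, and the liproxstatin libraries have more of their monocytes in every class from 2 UMIs upwards.

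The same order of groups was seen under other limits. Cells with at least 5 Chil3 UMIs made up 2.38% and 1.66% with liproxstatin, against 0.618% and 0.392% in controls. After each cell had been thinned to 5000 UMIs and gated again, the shares were 1.60% and 1.26% with liproxstatin, against 0.745% and 0.199% in controls. Free RNA can give cells UMIs of genes they do not express. T cells, which should lack Chil3, had at least 2 Chil3 UMIs in 0 of 1195 and 0 of 1426 liproxstatin cells, and in 0 of 421 and 1 of 957 control cells. The exact 95% upper limits of these shares were 0.308% and 0.258% with liproxstatin and 0.872% and 0.581% in controls. For Ly6c2 these shares were 19.1% and 17.9% with liproxstatin and 24.7% and 31.5% in controls, but some T cells express Ly6c2 themselves. Their part in the gate was not tested.

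Members of the groups were alike in depth apart from liproxstatin replicate 2. Their median UMI number was 16509 and 12499 with liproxstatin, against 16921 and 17480 in controls, and the summed counts behind each level were 5114542 and 3602617 UMIs against 874160 and 1012828. Whole libraries held 83129874 to 168597163 UMIs. Ptprc, which encodes CD45, was detected in 98.0% and 98.1% of liproxstatin members and in 100% and 100% of control members. Doublets, as called from simulated mixtures, took 9 and 6 liproxstatin and 0 and 1 control members. Of the members' barcodes 3 also occurred in another library, and none was a member in both.

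Among the markers that did not set the gate, all 3 separated the members from macrophages. Hp, the haemoglobin scavenger haptoglobin, stood at 415 and 367 CPM in liproxstatin members and at 455 and 619 CPM in control members, whereas C1q-high macrophages had 5.03 and 2.49 CPM with liproxstatin and 2.39 and 1.89 CPM in controls. Plac8, a small cysteine-rich protein of immature myeloid cells, stood at 3337, 4252, 4166 and 5088 CPM in the members of liproxstatin replicates 1 and 2 and control replicates 1 and 2, and at 141 to 203 CPM in the macrophages. Ifitm6, a myeloid membrane protein of the interferon-induced transmembrane family, stood at 362, 368, 522 and 668 CPM in the members in the same order, and at 14.1 to 19.7 CPM in the macrophages. These 3 genes came with the definition of the cells, so their differences between populations are described and not tested. They also separated members from monocytes without Chil3 in each library, where Hp stood at 115, 139, 84.8 and 159 CPM. Hp was also high in nonclassical monocytes, at 260 and 289 CPM with liproxstatin and 169 and 320 CPM in controls, so it does not mark the classical type alone. Ace, the angiotensin-converting enzyme that marks nonclassical monocytes in mice, stood at 24.0 and 31.4 CPM in liproxstatin members and 38.9 and 40.5 CPM in control members, and at 591, 481, 464 and 576 CPM in nonclassical monocytes.

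Levels within the members ran with their Chil3 number. In cells with 10 or more Chil3 UMIs Hp stood at 654 and 583 CPM with liproxstatin and 606 and 654 CPM in controls, and in cells with 2 to 4 Chil3 UMIs at 214 and 229 CPM with liproxstatin and 304 and 615 CPM in controls. Mgst1, a microsomal glutathione transferase, stood at 382, 360, 390 and 458 CPM in the high class and at 178, 155, 159 and 251 CPM in the low class. Cd74, the invariant chain of MHC class II, ran the other way in each library, with 865 and 2125 CPM with liproxstatin and 600 and 1074 CPM in controls in the high class, and 2752 and 5146 CPM with liproxstatin and 2204 and 1613 CPM in controls in the low class. The high class of the control libraries held only 9 and 11 cells, and these values carry no test.

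Set against the monocytes that passed the same limits but had no Chil3 UMI, the members had more RNA of genes of the granulocyte-monocyte lineage and less of antigen-presentation, macrophage and cell-cycle genes. The Chil3-zero monocytes numbered 426 and 450 with liproxstatin and 296 and 369 in controls and had similar depth, with medians of 15957 and 12622 UMIs with liproxstatin and 17324 and 16260 UMIs in controls. Sums per library were compared with edgeR's quasi-likelihood test with the library as a block, with p-values adjusted by Benjamini and Hochberg over all 10684 genes tested and a threshold of 0.05. Of these, 986 (9.23%) were higher and 943 (8.83%) were lower in the members, and the median log2 fold change was -0.01. The total was 1020 without liproxstatin replicate 1 and 1174 without liproxstatin replicate 2. The genes of the gate and the given markers were not tested here.

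The list of neutrophil-like progenitor genes, which encode granule and secreted proteins of early granulocytes, held 18 genes, of which 12 passed the filter on low counts, 10 were higher and none lower, with a median log2 fold change of 2.04. Cd177, a surface protein best known on neutrophils, had 39.1 and 54.7 CPM in liproxstatin members and 49.2 and 57.3 CPM in control members. The Chil3-zero monocytes had 5.25 and 10.3 CPM with liproxstatin and 7.09 and 5.50 CPM in controls, so that no library of one population reached the other. Such a separation was seen in 1702 (15.9%) of all 10684 genes tested. The log2 fold change of Cd177 was 2.82 ± 0.15 (SE, edgeR quasi-likelihood, adjusted p = 1.58e-10). Prtn3, the granule protease proteinase 3, had 37.5, 23.9, 33.2 and 79.0 CPM in the members of liproxstatin replicates 1 and 2 and control replicates 1 and 2, against 8.15, 13.9, 5.02 and 14.4 CPM in Chil3-zero monocytes (log2 fold change 1.95 ± 0.35, edgeR adjusted p = 0.0183). Fcnb, the lectin ficolin B, stood lower, at 6.84, 5.27, 11.4 and 10.9 CPM against 0.828, 0.934, 1.04 and 0.306 CPM (3.33 ± 0.41, edgeR adjusted p = 5.99e-06). Lcn2, the iron-carrier-binding lipocalin 2, had 56.9 and 31.6 CPM in liproxstatin and 11.4 and 19.7 CPM in control members, against 3.45 and 1.56 CPM and 0.346 and 6.88 CPM in Chil3-zero monocytes (3.43 ± 0.55, edgeR adjusted p = 0.023). Lcn2 was not called without control replicate 1, liproxstatin replicate 1 or liproxstatin replicate 2, Prtn3 not without liproxstatin replicate 1, and the secreted protein Wfdc21 (3.07 ± 0.66, edgeR adjusted p = 0.0485) not without control replicate 1. The mature-granule genes Ngp and Camp had 0 UMIs in the members of all 4 libraries. Markers of mature neutrophils summed to 1187 and 821 CPM in liproxstatin members and 527 and 1012 CPM in control members over 12 genes. In Chil3-zero monocytes they summed to 671 and 538 CPM with liproxstatin and 426 and 616 CPM in controls, lower than in the members of each library. Their part in these results was not tested.

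Of 35 classical monocyte genes on a list, 32 were tested, 16 were higher in the members and 1, Ly6i, was lower. Smpdl3a, a secreted phosphodiesterase, stood at 365, 309, 332 and 320 CPM in the members, against 160, 150, 128 and 164 CPM in Chil3-zero monocytes (1.15 ± 0.07, edgeR adjusted p = 4.71e-10). It lay above the Chil3-zero level in every library. F13a1, the A chain of clotting factor XIII, rose by 0.86 ± 0.08 on the log2 scale, and Itga4, the alpha chain of the integrin VLA-4, by 0.91 ± 0.07, each called. The list of nonclassical monocyte genes gave a like share of calls, with 10 of 18 tested higher and 2, Cd36 and Cd300e, lower (median 0.33). Itgal, the alpha chain of the integrin LFA-1, rose by 0.94 ± 0.07, Adgre4, an adhesion receptor, by 0.82 ± 0.15 and Ace by 0.61 ± 0.15. Adgre4 stood at 34.0, 39.4, 36.6 and 38.5 CPM in the members and 17.3, 19.3, 17.5 and 37.7 CPM in Chil3-zero monocytes, while nonclassical monocytes had 464, 346, 464 and 458 CPM. Other leading genes were Lrg1 at 2.69 ± 0.34, Spink2 at 2.26 ± 0.24, Apoc1 at 2.03 ± 0.30, F5 at 1.86 ± 0.14 and Sort1 at 1.85 ± 0.21, again called. Thbs1, the matrix protein thrombospondin 1, was not called, at 1821 and 1353 CPM in liproxstatin and 1375 and 854 CPM in control members against 880, 580, 388 and 843 CPM.

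MHC class II genes were lower in the members. Of 13 tested, 9 fell and none rose, with a median of -1.28. H2-Aa had 587 and 1263 CPM in liproxstatin members and 623 and 367 CPM in control members, against 2212 and 2885 CPM and 3127 and 2077 CPM in Chil3-zero monocytes. The sequences of the H2 genes are alike, so how the reads were divided among them is uncertain. Ciita, their master regulator, fell by 0.99 ± 0.14 on the log2 scale. Of 24 macrophage differentiation genes tested, 14 fell and 1, Selenop, rose. Apoe, which carries lipids, fell by 0.66 ± 0.05, the scavenger receptor gene Trem2 by 0.65 ± 0.08. Gpnmb, a glycoprotein of lipid-laden macrophages, fell by 3.24 ± 0.37. It had 2.54 and 0.278 CPM in liproxstatin members and 0 and 0 CPM in control members, against 14.6, 11.0, 11.9 and 5.35 CPM in Chil3-zero monocytes. Conventional dendritic cell markers were also lower, with 4 of 9 tested called, Flt3, Clec9a, Xcr1 and Clec10a. A share of dendritic cells among the Chil3-zero monocytes and a lower level per cell cannot be told apart from these sums.

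Cell-cycle genes gave the highest share of calls, with 31 of 35 tested lower and none higher (median -1.34). Mki67, which is expressed in dividing cells, had 5.08, 4.44, 3.43 and 5.92 CPM in the members against 15.5, 17.9, 32.9 and 31.0 CPM in Chil3-zero monocytes, and the macrophages had 145, 111, 159 and 144 CPM. Glycolysis and hypoxia genes fell in 18 of 28 tested and rose in none, with Hilpda, a lipid-droplet protein induced by low oxygen, at -1.19 ± 0.09 and the cytokine gene Mif at -0.85 ± 0.07. Of 19 chemokine genes tested 5 fell, Ccl3, Ccl5, Ccl8, Cxcl14 and Cxcl16. Ccl5, at -2.62 ± 0.43 (edgeR adjusted p = 0.042), lost its call without control replicate 2 or either liproxstatin library, and Mmp12, a macrophage elastase, at -1.99 ± 0.36, lost it without either control library or liproxstatin replicate 1. Of 26 immediate-early and stress genes 11 rose, among them Egr1 and Nr4a1, by 0.56 ± 0.09 and 0.74 ± 0.09, and 2 heat-shock genes, Hsph1 and Hsp90aa1, fell. The direction of Egr1 turned, to -0.11, with the gate applied after each cell had been thinned. The largest fall among abundant enough genes was that of Ppbp, a platelet chemokine, by 4.12 ± 0.37.

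**Figure D2:**
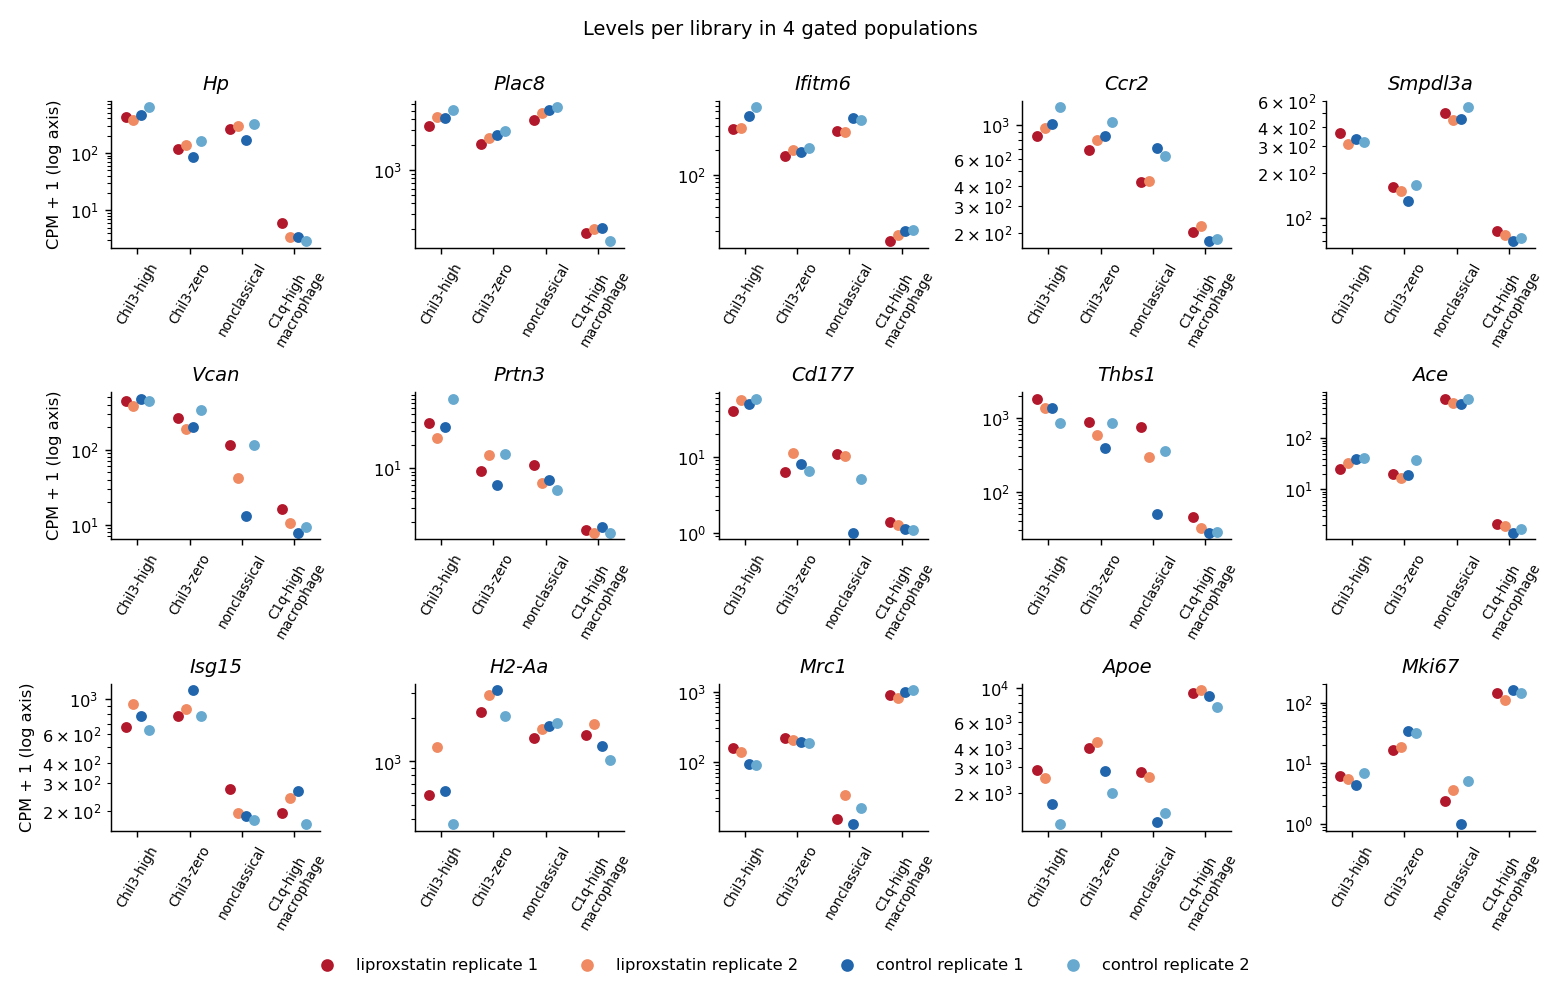
Each panel shows the level of 1 gene (CPM + 1, log axis) in 4 gated populations, with 1 point per library. Cd177 lies at 39.1 to 57.3 CPM in Chil3-high monocytes and at 5.25 to 10.3 CPM in Chil3-zero monocytes, while Mki67 lies at 3.43 to 5.92 CPM and 15.5 to 32.9 CPM in the same populations.

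C1q-high macrophages, the most numerous phagocytes with 39.8% of liproxstatin and 39.5% of control cells on average, differed from the members far more widely. Of 13222 genes tested by edgeR with the library as a block, 3015 (22.8%) were higher and 4084 (30.9%) lower in the members, and the median log2 fold change was -0.13. The macrophage cells were deeper, with medians of 24424 to 34571 UMIs, and the C1q limit itself separates them. Thbs1 was higher by 5.42 ± 0.07 on the log2 scale and the matrix proteoglycan gene Vcan by 5.50 ± 0.27, each called. F10, which encodes clotting factor X, had 202, 191, 127 and 273 CPM in the members against 7.64, 8.31, 4.10 and 7.07 CPM in the macrophages. It stood at much the same level in Chil3-zero monocytes, at 191, 176, 112 and 256 CPM.

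Type I interferon-induced genes stood above the macrophage level in 33 of 34 tested, and 1, Bst2, stood below it. Isg15, a ubiquitin-like antiviral protein, had 668 and 926 CPM in liproxstatin members and 778 and 639 CPM in control members, against 194 and 240 CPM and 267 and 166 CPM in the macrophages. Against Chil3-zero monocytes the same list gave 2 higher and 9 lower genes of 34, so the members were not the highest monocytes for this programme. All 36 cell-cycle genes were lower than in macrophages. Of the macrophage differentiation genes 22 of 25 were lower and 2, Spp1 among them, higher. Crym, which encodes a thyroid-hormone-binding protein, had 0 UMIs in all members, against 15.8 CPM over all the macrophages, at least 55.9-fold lower when 3 counts over all members are taken as the floor. Slc7a11, the cystine transporter that supplies glutathione and so opposes ferroptosis, had 89.5, 69.9, 74.4 and 78.0 CPM in the members, against 18.6, 12.5, 6.73 and 6.57 CPM in the macrophages (2.81 ± 0.14, edgeR adjusted p = 1e-17). Gpx4, the peroxidase that removes lipid peroxides, did not pass the test, at 299, 293, 301 and 340 CPM against 308, 349, 340 and 379 CPM. Over the list of ferroptosis-opposing genes 7 of 27 were higher and 14 lower, and over that of ferroptosis-promoting genes 6 of 20 were higher and 11 lower.

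Within the members, few genes passed the test of liproxstatin against control. Of 8601 genes tested by edgeR's quasi-likelihood test with 2 libraries in each group, 20 (0.233%) were higher and 1 (0.0116%) was lower at an adjusted p under 0.05. At an unadjusted p under 0.05 there were 783, and the median log2 fold change over all genes was 0.01. All 21 genes kept their direction without any 1 library. Of these, 5 were also called with equal cell numbers and 6 with the gate applied after thinning. With at least 5 Chil3 UMIs 12 were called, and with 4 populations in 1 fit 3. Cxcl9 and Ifi27l2a were not called with the gate applied after thinning or with 4 populations in 1 fit. Cxcl9 was also not called with at least 5 Chil3 UMIs. Ccrl2 was not called with equal cell numbers, at least 5 Chil3 UMIs or 4 populations in 1 fit. Ccl5 was not called with 4 populations in 1 fit, AW112010 not with equal cell numbers, and Il7r in none of these 4 settings. Without a Chil3 limit, in all monocytes that passed the other limits, 2 of the 21 genes were called and 19 kept their direction. Without control replicate 2 13 of the calls were lost, without liproxstatin replicate 1 9, without control replicate 1 5 and without liproxstatin replicate 2 4. The genes still called without any 1 library were 7 in number, Ccl5, Cxcl9, Il7r, Tsc22d3, AW112010, Ccrl2 and Ifi27l2a. The number of calls itself was 77 without control replicate 1 and 57 without liproxstatin replicate 2, against 21 with all 4 libraries.

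The chemokines Ccl5 and Cxcl9 were among the genes that rose and were still called without any 1 library. Ccl5, which attracts T cells and monocytes (chr11:83525778-83530518, minus strand, GRCm38), had 37.0 and 46.9 CPM in liproxstatin members, against 3.43 and 6.91 CPM in control members. The log2 fold change of Ccl5 was 3.02 ± 0.36 (edgeR adjusted p = 0.00155). Most of its UMIs lay in few cells, as given further on. Cxcl9, an interferon-gamma-induced ligand of the T cell receptor Cxcr3 (chr5:92321347-92328079, minus strand), had 590 and 466 CPM in liproxstatin members, against 83.5 and 133 CPM in control members (2.34 ± 0.19, edgeR adjusted p = 0.00127). Its neighbour Cxcl10 (chr5:92346638-92348889), another Cxcr3 ligand, lay in the other direction without passing the test, at 454 and 628 CPM with liproxstatin and 1114 and 794 CPM in controls (-0.77 ± 0.24, edgeR adjusted p = 0.455). Of 18 chemokine genes tested from a list of 20, these 2 rose and none fell, and 16 had a fold change above 0. Cxcl1, a neutrophil-attracting chemokine, measured 2.13 ± 0.31 (edgeR adjusted p = 0.0703). Cxcl16 measured 0.80 ± 0.17 (edgeR adjusted p = 0.0711). Ccl2, the main ligand of Ccr2, measured -0.03 ± 0.15.

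Interferon genes gave few calls. Of 24 interferon-gamma genes tested only Cxcl9 rose and none fell, and the median was 0.03. Of 33 type I interferon genes none was called, with a median of -0.02, and Ifi27l2a, a mitochondrial interferon-induced gene on no such list, was the single gene that fell. It stood at 2275 and 2298 CPM in liproxstatin members, against 3618 and 3603 CPM in control members (-0.60 ± 0.09, edgeR adjusted p = 0.00961). It has near-identical paralogs, as has Serpina3g, so the division of their reads is uncertain. Ly6a, the interferon-induced surface protein Sca-1, had 175 and 182 CPM with liproxstatin, against 51.5 and 20.7 CPM in controls (2.39 ± 0.31, edgeR adjusted p = 0.0457), but lost its call without either liproxstatin library and also belongs to a family of similar genes. Without a Chil3 limit Ly6a measured -0.08 on the log2 scale. AW112010, a long RNA of activated immune cells, had 349 and 465 CPM with liproxstatin, against 129 and 177 CPM in controls (1.46 ± 0.17, edgeR adjusted p = 0.00155). It had a UMI in 71.7% and 68.3% of liproxstatin members, against 63.5% and 80.0% of control members, so these shares overlapped. T cells had one in 96.9% and 97.7% with liproxstatin and 97.4% and 97.5% in controls.

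Genes that glucocorticoids induce were 3 of the 20 that rose. Tsc22d3, known as GILZ, which restrains inflammatory transcription, had 144 and 183 CPM in liproxstatin members, against 56.1 and 39.5 CPM in control members (1.84 ± 0.20, edgeR adjusted p = 0.00155). Klf9, a transcription factor, had 47.3 and 36.1 CPM with liproxstatin, against 13.7 and 11.8 CPM in controls (1.78 ± 0.29, edgeR adjusted p = 0.0156), and was not called without control replicate 2 or liproxstatin replicate 1. Dusp1, a phosphatase of stress kinases, had 1269 and 1406 CPM, against 900 and 995 CPM (0.55 ± 0.11, edgeR adjusted p = 0.0457), and lost its call without any 1 library. Of the 24 genes listed, 21 were tested, 15 lay above 0 and none fell, with a median of 0.49. The list was chosen with earlier results of these data known, so these counts are description only. Fkbp5, which binds the glucocorticoid receptor complex, had 23.3 and 14.7 CPM with liproxstatin, against 3.43 and 4.94 CPM in controls, without passing the test (2.24 ± 0.47, edgeR adjusted p = 0.0703). The clock gene Per1 measured 0.95 ± 0.28 (edgeR adjusted p = 0.276).

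The windows of Klf9 and Tsc22d3 are shown because both genes rose and each holds a GAS-like match, in capitals (RefSeq, GRCm38.p6, Klf9 at chr19:23140976-23141275, plus strand, and Tsc22d3 at chrX:140548522-140548821, minus strand).
Klf9: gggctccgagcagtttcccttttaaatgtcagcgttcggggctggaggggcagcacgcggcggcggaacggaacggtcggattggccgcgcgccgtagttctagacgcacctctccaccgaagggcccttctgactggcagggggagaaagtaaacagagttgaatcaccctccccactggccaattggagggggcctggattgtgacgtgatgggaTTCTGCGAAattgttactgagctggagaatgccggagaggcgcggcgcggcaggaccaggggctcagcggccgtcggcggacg
Tsc22d3: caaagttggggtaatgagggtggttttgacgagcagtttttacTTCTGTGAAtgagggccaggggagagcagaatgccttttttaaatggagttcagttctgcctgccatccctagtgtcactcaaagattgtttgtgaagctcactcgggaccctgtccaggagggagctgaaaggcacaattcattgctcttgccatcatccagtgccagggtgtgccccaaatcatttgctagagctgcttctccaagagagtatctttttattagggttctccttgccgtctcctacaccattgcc
The other 2 windows of Tsc22d3 held no GAS-like match. Among 15 called genes named by rule, 11 had windows, 14 in all, and 3 genes held the GAS-like motif, in 3 windows. Over all 32851 windows 8.3% held a match, and the difference was not tested. None of the 14 held the interferon-response motif or the glucocorticoid-response-element-like one, and such elements often lie far from the start, outside these windows.

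Several other genes that rose encode surface and secreted proteins. Il7r, the interleukin 7 receptor, had 49.1 and 41.4 CPM in liproxstatin members, against 4.58 and 14.8 CPM in control members (2.23 ± 0.33, edgeR adjusted p = 0.00961). Pdpn, the mucin podoplanin, had 51.2 and 38.6 CPM, against 11.4 and 10.9 CPM (2.08 ± 0.30, edgeR adjusted p = 0.00643). Id1, an inhibitor of helix-loop-helix transcription factors, had 75.1 and 58.3 CPM, against 19.4 and 20.7 CPM (1.79 ± 0.24, edgeR adjusted p = 0.00408). Mmp12 had 60.4 and 40.2 CPM, against 17.2 and 14.8 CPM (1.73 ± 0.30, edgeR adjusted p = 0.0297). Without a Chil3 limit Mmp12 measured -0.14 on the log2 scale. In each of these genes both liproxstatin libraries lay above both controls. This was a condition for naming them, and the groups did not overlap in 41.3% of all 8601 genes tested. Pdpn, Id1 and Mmp12 lost their calls without control replicate 2, and Mmp12 also without control replicate 1 or liproxstatin replicate 1. Selenom, a selenoprotein of the endoplasmic reticulum, measured 1.47 ± 0.21 and Dusp2 1.21 ± 0.22. AA467197, at 12.5 and 15.3 CPM with liproxstatin and 0 and 1.97 CPM in controls, rests on very few UMIs and lost its call without any 1 library. The remaining calls, listed so that all 21 are named, were Serpina3g, Ms4a8a, Ecm1, Ccrl2, Rab20 and the protease gene Ctsl. Ccrl2, a chemerin-binding receptor, had 549 and 561 CPM, against 318 and 232 CPM. Of 22 myeloid transcription factor genes tested only Id1 was called.

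**Figure D3:**
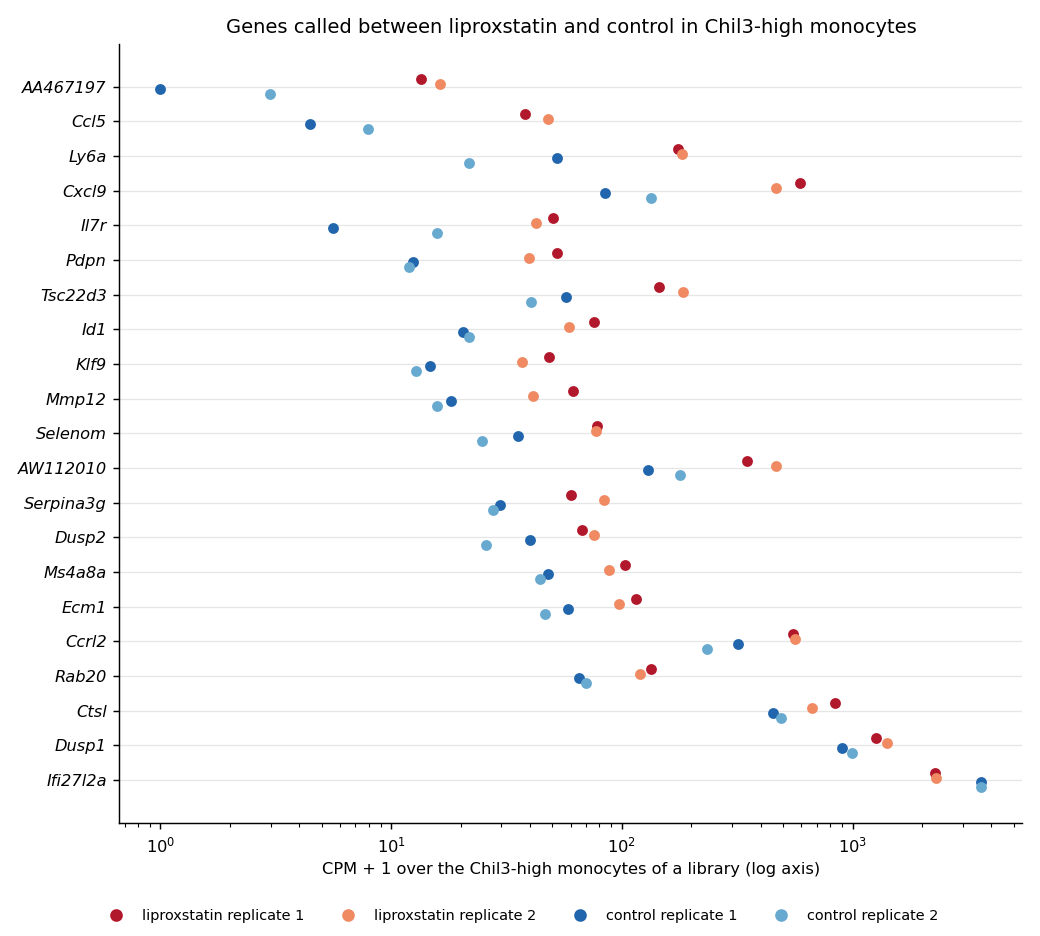
The level (CPM + 1, log axis) of each of the 21 called genes is shown in the Chil3-high monocytes of each library, with 1 point per library. In the upper 20 genes both liproxstatin points lie to the right of both control points, and in Ifi27l2a they lie to the left, at 2275 and 2298 CPM against 3618 and 3603 CPM. The groups were separated in this way in 41.3% of all 8601 genes tested.

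Markers of other cell types were present at low levels in the members. T cell markers summed over 10 genes to 70.2 and 59.7 CPM in liproxstatin members, against 18.3 and 38.5 CPM in control members, and no marker was at 0 in all 4 libraries. This list holds Il7r, and over the other 9 genes the sums were 21.1 and 18.3 CPM in liproxstatin members and 13.7 and 23.7 CPM in control members, so the groups overlapped. In T cells themselves these 9 summed to 6764 and 6676 CPM with liproxstatin and 6155 and 7044 CPM in controls. T cells had 1159 and 1033 CPM of Ccl5 with liproxstatin and 945 and 869 CPM in controls, 188 and 163 CPM of Il7r against 114 and 99.9 CPM, and 74.4 and 55.4 CPM of AA467197 against 62.3 and 92.0 CPM. Macrophage markers summed over 10 genes to 3674 and 3381 CPM in liproxstatin members and 2371 and 2054 CPM in control members, and most of each sum was Apoe. Over all 10 genes both liproxstatin sums lay above both control sums. Apoe and Mrc1, described further on, both had higher levels with liproxstatin. Without them the sums over 8 genes were 677 and 721 CPM in liproxstatin members and 573 and 714 CPM in control members. These sums overlapped, but they leave out 2 genes that were higher with liproxstatin and do not describe the whole list. With members that were called doublets, held any Cd3d, Cd3e or Siglech UMI or came nearer the C1q and S100a8 limits left out, 13 of the 21 calls were made. Ccl5 then measured 3.08 (edgeR adjusted p = 0.00131) and Cxcl9 2.66 (edgeR adjusted p = 3.88e-06), while Il7r measured 2.64 and lost its call (edgeR adjusted p = 0.478). The part of free RNA in the other genes was not tested.

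The changes were spread over cells in different ways. Tsc22d3 had a UMI in 77.1% and 73.6% of liproxstatin members, against 42.3% and 40.0% of control members, and after thinning to 5000 UMIs in 47.1% and 46.4% against 19.6% and 14.5%. Klf9 had one in 36.0% and 28.3% of liproxstatin members, against 13.5% and 14.5% of control members, and after thinning in 16.8% and 17.1% against 5.88% and 7.27%. In both genes the liproxstatin libraries lay above the controls on either measure. Cxcl9 had one in 30.6% and 28.3% of liproxstatin members, against 21.2% and 23.6% of control members, and after thinning in 21.5% and 20.9% against 11.8% and 18.2%. In T cells, which should lack Cxcl9, the thinned shares were 6.95% and 3.88% with liproxstatin and 3.71% and 4.61% in controls. The median depths were 16509 and 12499 UMIs in liproxstatin members and 16921 and 17480 UMIs in control members, and those of T cells 10935 and 9368 UMIs with liproxstatin and 11388 and 12466 UMIs in controls.

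Cxcl9 rested on few cells of high level. At least 10 Cxcl9 UMIs were found in 36 and 26 liproxstatin members (12.1% and 9.81%), against 2 and 5 control members (3.85% and 9.09%). The highest cell held 12.6% and 8.33% of all Cxcl9 UMIs with liproxstatin, against 64.4% and 37.8% in controls, where fewer cells were summed. Ccl5 was found in 11.8% and 11.7% of liproxstatin members, against 5.77% and 7.27% of control members, and rested on 189 and 169 UMIs against 3 and 7. The 5 highest cells held 73.0% and 68.6% of the Ccl5 UMIs in liproxstatin members. In control members only 3 and 4 cells had any. Mmp12 had a UMI in 12.1% and 9.81% of liproxstatin members, against 13.5% and 12.7% of control members, and after thinning in 5.72% and 6.08% against 7.84% and 5.45%, where the groups overlapped. A single cell held 41.4% and 35.9% of its UMIs with liproxstatin, against 46.7% and 26.7% in controls.

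**Figure D4:**
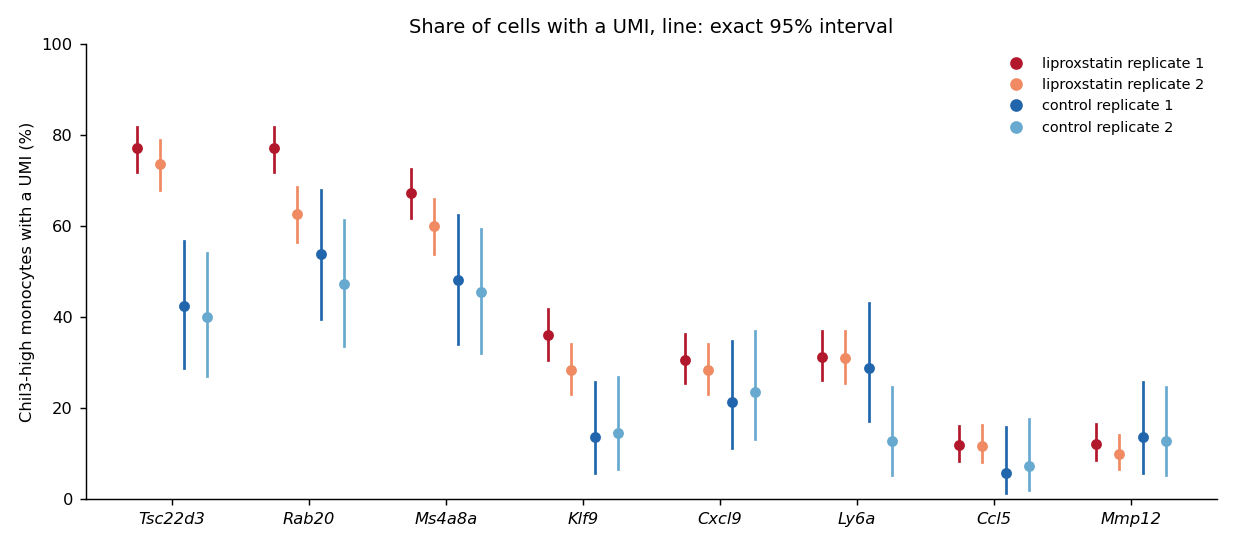
The share of Chil3-high monocytes with at least 1 UMI (in percent, before thinning) is shown for 8 called genes in each library, with exact 95% intervals that cover counting error only. For Tsc22d3 the liproxstatin libraries, at 77.1% and 73.6%, lie above the controls, at 42.3% and 40.0%, with intervals that do not meet, and for Mmp12 all 4 intervals overlap.

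Genes of monocyte identity did not pass the test under liproxstatin. Of 35 classical monocyte genes tested none was called, 20 lay above 0 and the median was 0.04. Ifitm6 came nearest, at 362 and 368 CPM in liproxstatin members, against 522 and 668 CPM in control members (-0.65 ± 0.13, edgeR adjusted p = 0.0517). Hp measured -0.40 ± 0.14, Plac8 -0.23 ± 0.12, Ccr2 -0.30 ± 0.12 and Vcan -0.09 ± 0.13 on the log2 scale. The clotting factor genes F10 and F13a1 measured 0.03 ± 0.33 and 0.20 ± 0.20, Thbs1 measured 0.56 ± 0.37, and Ly6c1 measured -0.01 ± 0.23. None of 17 nonclassical genes was called. Cx3cr1, the fractalkine receptor, stood at 32.1 and 35.3 CPM with liproxstatin, against 56.1 and 76.0 CPM in controls (-0.93 ± 0.19, edgeR adjusted p = 0.0654), and Nr4a1, the factor that nonclassical monocytes need, measured -0.09 ± 0.54. None of 10 neutrophil-like progenitor genes was called. Pglyrp1, a peptidoglycan-binding granule protein, had 26.8 and 26.1 CPM with liproxstatin, against 67.5 and 43.4 CPM in controls (-1.00 ± 0.23, edgeR adjusted p = 0.0939).

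No macrophage differentiation gene was called among 22 tested, although 20 lay above 0 and the median was 0.41. Mrc1, the mannose receptor, had 156 and 139 CPM in liproxstatin members, against 92.7 and 89.8 CPM in control members (0.75 ± 0.15, edgeR adjusted p = 0.0641). Apoe had 2841 and 2522 CPM, against 1706 and 1250 CPM (0.91 ± 0.17, edgeR adjusted p = 0.092). The summed macrophage markers other than these genes overlapped between the groups, whereas the sums that included them did not, as given above. MHC class II genes had no call among 12 and a median of 0.59. H2-Ab1 stood at 490 and 1039 CPM with liproxstatin, against 580 and 266 CPM in controls, so the groups overlapped. Inflammatory genes of the NF-kB list had no call among 27 and a median of 0.38. Nfkbia, the inhibitor that NF-kB itself induces, had 860 and 776 CPM, against 448 and 299 CPM (1.18 ± 0.20, edgeR adjusted p = 0.0703). Il1b measured 0.22 ± 0.48, Tnf 0.21 ± 0.28 and Ptgs2, the prostaglandin synthase, 0.91 ± 0.20. Arg1, the arginase of suppressive myeloid cells, measured 0.96 ± 1.26 with 308 and 168 CPM against 20.6 and 233 CPM. The checkpoint ligand gene Cd274 measured 0.24 ± 0.19, the costimulator gene Cd86 0.22 ± 0.14 and Vegfa 0.77 ± 0.19. None of these was called.

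Genes of ferroptosis, the process the drug inhibits, gave no call in the members. Of 17 ferroptosis-promoting genes tested from a list of 23, none was called and the median was 0.06. Of 22 ferroptosis-opposing genes from a list of 28, none was called and the median was 0.07. Gpx4 had 299 and 293 CPM with liproxstatin, against 301 and 340 CPM in controls (-0.06 ± 0.12, edgeR adjusted p = 0.94), and Slc7a11 had 89.5 and 69.9 CPM, against 74.4 and 78.0 CPM (0.13 ± 0.18, edgeR adjusted p = 0.882). Acsl4, which loads membranes with the lipids that oxidise, measured 0.24 ± 0.20. Hmox1, the haem oxygenase that frees iron, had 173 and 303 CPM, against 104 and 120 CPM (1.13 ± 0.28, edgeR adjusted p = 0.314). A single cell held 11.5% and 37.7% of its UMIs with liproxstatin, against 24.2% and 17.2% in controls. Hmox1 had a UMI in 59.3% and 53.2% of liproxstatin members, against 51.9% and 65.5% of control members, so these shares overlapped. Fth1, the heavy chain of the iron store ferritin, had 7921 and 8348 CPM, against 6714 and 5504 CPM (0.46 ± 0.11, edgeR adjusted p = 0.126). Of 36 oxidative phosphorylation genes 31 lay below 0 with a median of -0.13, and none was called. None of 27 glycolysis and hypoxia or 20 cell-cycle genes was called. A missed threshold does not show that these genes were equal. In simulated data of this size 57.0% of 2-fold changes were found, but these were set only in genes with higher counts.

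The response of the members was compared directly with that of the C1q-high macrophages of the same libraries, by the interaction of population and treatment in edgeR with the library as a block. Of 13225 genes, 79 (0.597%) responded more positively and 42 (0.318%) more negatively in the members. Without liproxstatin replicate 1 there were 53 such genes in place of 121. The populations share libraries, so the fold changes of each are given side by side. The log2 fold change of Ccl5 was 3.02 ± 0.36 in the members and 0.59 ± 0.49 in the macrophages, a difference of 2.43 ± 0.36 (edgeR adjusted p = 2.05e-08). That of Ly6a was 2.39 ± 0.31 in the members and 0.48 ± 0.09 in the macrophages, a difference of 1.96 ± 0.17 (edgeR adjusted p = 1.62e-24). That of Cxcl9 was 2.34 ± 0.19 in the members and 0.43 ± 0.18 in the macrophages, a difference of 1.90 ± 0.28 (edgeR adjusted p = 0.0194). The spread between libraries was estimated by edgeR partly from other genes, so the very small p-value of Ly6a does not rest on Ly6a alone. The Cxcl9 difference lost its call without either liproxstatin library and the Ccl5 difference without control replicate 1. Cxcl9 stood at 946 and 877 CPM in liproxstatin macrophages and at 811 and 574 CPM in control macrophages.

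Other genes responded more positively in the macrophages. Slc7a11 measured 1.26 ± 0.18 there (edgeR adjusted p = 0.031) and 0.13 ± 0.18 in the members, a difference of -1.09 ± 0.20 (edgeR adjusted p = 2.02e-05). Napsa, an aspartic protease, measured -0.29 in the members and 0.95 ± 0.10 in the macrophages, a difference of -1.20 ± 0.13. Of 35 classical monocyte genes 6 responded more negatively in the members, Hp, Ccr2, Vcan, Mcemp1 and S100a4 among them, and none more positively. Of 25 macrophage differentiation genes 6 responded more positively, Apoe, Mrc1, Spp1, Ms4a7, Selenop and Lgmn. Immediate-early genes responded more negatively in 7 of 26. The Slc7a11 difference was not called without liproxstatin replicate 1.

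Against the Chil3-zero monocytes, a comparison added after the data had been seen, 9 of 10687 genes (0.0842%) responded more positively and 1 (0.00936%) more negatively in the members. The total of 10 became 43 without liproxstatin replicate 1, 25 without liproxstatin replicate 2 and 16 without control replicate 1. Ccl5 measured 3.02 ± 0.36 in the members and 0.21 ± 0.14 in the Chil3-zero monocytes, a difference of 2.80 ± 0.35 (edgeR adjusted p = 0.0013). The Chil3-zero monocytes had more Ccl5 in every library, with 200 and 199 CPM with liproxstatin and 194 and 162 CPM in controls. Ly6a differed by 2.28 ± 0.17 (edgeR adjusted p = 8.78e-07), and the Chil3-zero monocytes had 453 and 468 CPM with liproxstatin and 624 and 272 CPM in controls. Pdpn differed by 2.09 ± 0.35, with 88.5 and 42.3 CPM in Chil3-zero monocytes with liproxstatin and 93.4 and 46.4 CPM in controls. In these 3 genes the liproxstatin members came nearer to the Chil3-zero level than the control members did. Cxcl10 differed by -0.84 ± 0.13 (edgeR adjusted p = 0.00714). The 5 highest cells held 41.2% and 43.6% of its UMIs in liproxstatin members, against 91.3% and 91.5% in control members, where fewer cells were summed. It had a UMI in 34.0% and 38.1% of liproxstatin members, against 38.5% and 43.6% of control members.

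The glucocorticoid-inducible genes Tsc22d3 and Klf9 were higher with liproxstatin in all 3 populations. Tsc22d3 measured 1.84 ± 0.20 in the members, 1.27 ± 0.14 in Chil3-zero monocytes (edgeR adjusted p = 0.0034) and 1.18 ± 0.09 in macrophages (edgeR adjusted p = 0.000196). The difference of 0.69 ± 0.18 from macrophages was called (edgeR adjusted p = 0.0143) but was lost without control replicate 2 or either liproxstatin library. Klf9 measured 1.78 ± 0.29 in the members, 1.55 ± 0.19 in Chil3-zero monocytes (edgeR adjusted p = 0.00532) and 1.15 ± 0.12 in macrophages (edgeR adjusted p = 0.00117). Fkbp5, which missed the threshold in the members at 2.24 ± 0.47, was called in Chil3-zero monocytes at 1.28 ± 0.21 (edgeR adjusted p = 0.0354) and in macrophages at 1.03 ± 0.12 (edgeR adjusted p = 0.00575). When the members were pooled with all monocytes that passed the other limits, Tsc22d3 and Klf9 were the 2 of the 21 genes that were still called.

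**Figure D5:**
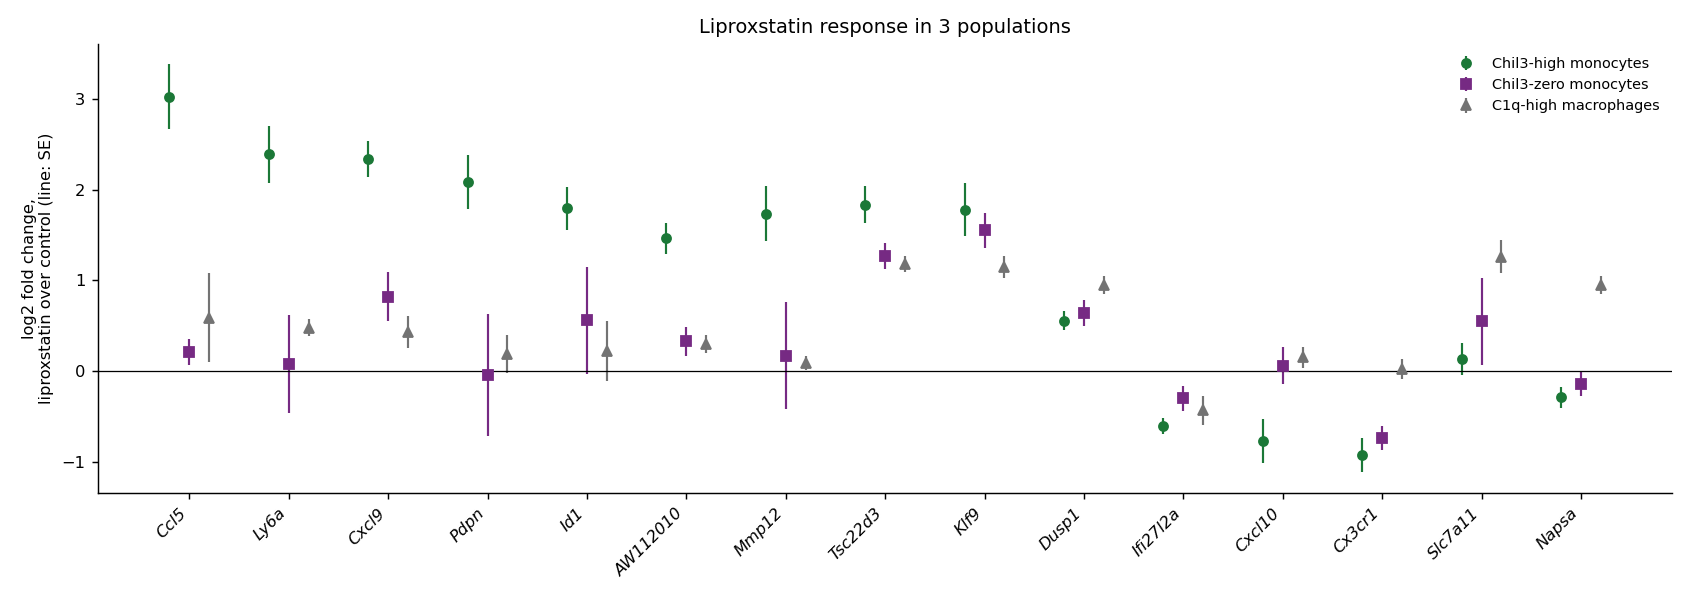
The log2 fold change of liproxstatin over control (point) and its standard error (line) are shown for 15 genes in Chil3-high monocytes, Chil3-zero monocytes and C1q-high macrophages, each fitted alone over the same 4 libraries. Ccl5 lies at 3.02 in the members and at 0.21 and 0.59 in the other populations, whereas Tsc22d3 lies at 1.84, 1.27 and 1.18.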

How the data were processed

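The authors deposited raw UMI counts for each gene and cell barcode in 1 matrix for each library, per the file headers. Cell Ranger 6.1.1 stands in those headers, but Cell Ranger 4 with build mm10 in the submitters' processing notes, and which was used was not settled. The matrices list 32285 genes, of which 32235 identifiers were found in GENCODE M21, and 29092 barcodes with at least 500 UMIs each. Across libraries 67 barcodes recurred. Barcodes with at least 200 genes and under 15% mitochondrial UMIs were kept.

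The members and all gene lists were chosen with earlier results of these data known. Counts were summed per library over the cells of a population, and genes of the gate were not tested. Chil3-zero monocytes passed the same gate with 0 Chil3 UMIs. C1q-high macrophages had at least 1 Csf1r UMI and at least 10 C1q UMIs per 10000, and T cells at least 3 Cd3d and Cd3e UMIs without Csf1r. edgeR 4.0.16 under R 4.3.3 was used with filterByExpr, TMM, robust quasi-likelihood and Benjamini-Hochberg adjustment at 0.05, with n = 2 libraries per group. Standard errors were taken from the fold change and the F statistic. CPM is relative to the summed UMIs of the population in a library. Alternatives were DESeq2 1.42.0, no filter on low counts, each library left out, doublets left out (Scrublet in scanpy 1.11.5), a replicate block, equal cell numbers, cells thinned to 5000 UMIs before gating, other Chil3 limits, 4 populations in 1 fit, and stricter limits on other cell types. The genes named were the largest called changes whose libraries did not overlap, a panel of genes, and up to 4 genes per list. Other genes were chosen after their values were seen, namely those given as examples of a population or of a list, the remaining calls, and those whose response was set beside that of the members. Exact binomial intervals at 95% cover counting error only, and a count of 0 was bounded at 3 UMIs. On simulated counts, with 8422 genes tested, the treatment comparison found 57.0% of 2-fold and 96.0% of 4-fold changes. The changes were set only in a sample of genes with higher counts, so genes of low counts were not covered. Plots were drawn with matplotlib 3.10.9, and shares were computed with Python 3.11.15 and scipy 1.17.1. The list genes Aldoa, Clec7a, Cxcl11, Ddit3, H2-L, Mx1 and Mx2 were not analysed here, and some genes that enter the counts are not reported here by name.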

Additional observations from a re-analysis of the deposited data

Results flagged for a closer look

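Differences in the liproxstatin response between the Chil3-high monocytes and another population of the same libraries are given as log2 values, each past an adjusted p of 0.05 in edgeR's interaction test. None was weighed or explained.

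Against C1q-high macrophages, the response of the Chil3-high monocytes was more positive by 3.12 for AA467197, 2.43 for Ccl5, 2.22 for Cd38, 2.12 for Sectm1a, 2.06 for Saa3, 1.96 for Ly6a, 1.92 for Pdpn, 1.90 for Cxcl9 and 0.69 for Tsc22d3. The acute-phase gene Saa3 stood at 81.9 and 43.6 CPM in liproxstatin members and at 1.14 and 18.8 CPM in control members, and Cd38, an NAD-consuming ectoenzyme, at 31.1 and 13.6 CPM against 2.29 and 3.95 CPM. The response was more negative in the members for Tagap (-1.79), Cep135 (-1.45), Hp (-1.21), Napsa (-1.20), Slc7a11 (-1.09), Nr4a2 (-1.00), Lima1 (-0.96), Cx3cr1 (-0.93), Cxcl10 (-0.89), Vcan (-0.75), Ccr2 (-0.53) and Il1b (-0.46). Without liproxstatin replicate 1, AA467197, Cd38, Cxcl9, Tsc22d3, Tagap, Cep135, Hp, Slc7a11, Nr4a2, Lima1, Cx3cr1, Vcan, Ccr2 and Il1b lost their calls, and DESeq2 did not call 13 of these 21 genes. In Chil3-zero monocytes the log2 fold change of liproxstatin over control was 1.97 ± 0.18 for Cd38 and 2.40 ± 0.68 for Saa3. It was 1.27 for Tsc22d3, 0.82 for Cxcl9, 0.77 for AA467197, 0.21 for Ccl5, 0.08 for Ly6a, -0.04 for Pdpn and -0.32 for Sectm1a. For the genes more negative in the members it ran from -0.74 for Cx3cr1 to 0.90 for Nr4a2. Of the 21 genes only Cd38 (edgeR adjusted p = 0.000863) and Tsc22d3 were called there.

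Against Chil3-zero monocytes, the response of the members was more positive by 5.10 for Mgl2, 2.80 for Ccl5, 2.28 for Ly6a, 2.09 for Pdpn, 1.96 for Inhba, 1.13 for AW112010, 1.06 for Mt1 and 0.87 for Ccl4. It was more negative for Cxcl10 (-0.84). The lectin gene Mgl2 stood at 17.4 and 8.60 CPM in liproxstatin members and at 0 and 1.97 CPM in control members, and a single cell held 73.0% and 83.9% of its UMIs in the liproxstatin libraries. Inhba, a subunit of activins, stood at 142 and 57.2 CPM in liproxstatin members and at 18.3 and 6.91 CPM in control members, and the metallothionein gene Mt1 at 742 and 520 CPM against 125 and 269 CPM.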

How the results depend on the processing

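The share of cells in the gate, over kept cells, phagocytes or monocytes, was 2.48 to 4.01 times as high in liproxstatin as in control under every alternative run, against 3.07 as reported. Of the 15 called genes followed through the alternatives of the treatment comparison, Ly6a and Mmp12 turned without a Chil3 limit, and the other 13 kept their direction wherever they were tested. The number of calls moved more. It was 21 as reported, 23 to 77 when 1 library was left out, 179 without a filter on low counts (154 higher and 25 lower), 7 with equal numbers of cells, 45 with at least 5 Chil3 UMIs, 3 with 4 populations in 1 fit and 10 without a Chil3 limit. DESeq2 called 20 genes, 14 of them among the 21. With the gate applied after thinning 23 genes were called, 6 of them among the 21. With equal numbers of cells 5 of the calls were among the 21, and with at least 5 Chil3 UMIs 12. The replicate block gave 54 calls, all 21 among them. The replicate numbers were shared by the groups, and the labels do not say whether same-numbered libraries were processed together. The deviations of same-numbered libraries had a correlation of 0.0397 over 8601 genes. This single value cannot settle whether the samples were paired. The replicate numbers are those of the sample titles. The names of the deposited files number 3 of the 4 libraries differently, and pairing the libraries the other way changes only the sign of this correlation. Against Chil3-zero monocytes the number of called genes was 948 with DESeq2, 862 without the library block, 959 with the gate applied after thinning and 1020 to 1657 when 1 library was left out, in place of 1929. For the response against macrophages it was 34 with DESeq2 and 53 to 141 without 1 library, in place of 121. For the response against Chil3-zero monocytes it was 48 without a filter and 9 to 43 without 1 library, in place of 10. The cause of these differences was not tested, but leaving out a library also leaves fewer samples.

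Apart from Ly6a, Mmp12 and Egr1, the genes whose direction turned had not passed the test. Their log2 differences follow. Without a Chil3 limit they were Ly6a (-0.08), Mmp12 (-0.14), Hp (0.37), Vcan (0.12), Nr4a1 (0.42), Tnf (-0.08), H2-Ab1 (-0.17), Gpx4 (0.05), Ly6c1 (0.11), Fcnb (0.45), Gbp5 (0.16), H2-D1 (-0.06), H2-DMb2 (-0.13), Ifit3b (-0.64), Isg20 (-0.12), Mcm5 (-0.82), Pcna (-0.09), Pdcd1lg2 (-0.10), Plau (-0.27), Prtn3 (0.25) and Tubb5 (-0.27). With the gate applied after thinning they were F10 (-0.07), Cx3cr1 (0.09), Tnf (-0.03), Ccl2 (0.15), Cd274 (-0.16), Slc7a11 (-0.11), Acsl4 (-0.24), Gbp5 (0.01) and, against Chil3-zero monocytes, Egr1 (-0.11). With at least 5 Chil3 UMIs they were Vcan (0.26), Nr4a1 (0.00), Ccl2 (0.15), Acsl4 (-0.02) and Gbp5 (0.46). Ccl2 also turned with 4 populations in 1 fit (0.02), equal cells (0.42) and no filter (0.01). Ly6c1 turned with 4 populations in 1 fit (0.04), doublets left out (0.01), no filter (0.02), the replicate block (0.03) and stricter limits on other cell types (0.03), and Nr4a1 with the replicate block (0.02). With 1 library left out the ranges that crossed 0 were -0.21 to 0.01 for Vcan, -0.37 to 0.65 for F10, -0.16 to 0.49 for F13a1, -0.59 to 0.67 for Nr4a1, -0.22 to 0.84 for Il1b, -0.15 to 0.62 for Tnf, -0.24 to 0.24 for Ccl2, -0.05 to 0.65 for Cd274, -0.08 to 0.30 for Slc7a11, -0.32 to 0.39 for Ly6c1 and -0.01 to 0.43 for H2-DMa.

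Depth limits the treatment comparison most in the control libraries, where 52 and 55 members were summed.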
